A study of Mus musculus with 8 samples.

Results

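Mouse embryonic fibroblasts (MEFs) driven towards pluripotency in culture were given either NSC636819 (NSC), which inhibits KDM4A and KDM4B, enzymes that demethylate histone H3, or S-adenosylmethionine (SAM), the methyl donor of the cell, and their transcriptomes were compared. The comparison rests on 4 of the 8 bulk RNA-seq libraries of the series, chosen by their treatment labels, and covers 19392 genes that passed a low-count filter, of 55487 in the deposited table. All MEFs were C57BL/6 and carried Rosa26-rtTA (+/T) and Tet-O-OSKM (+/T), so that doxycycline switches on Oct4, Sox2, Klf4 and Myc (OSKM). In all groups cells received doxycycline for 72 h. NSC cells were given 10 µM NSC636819 and SAM cells 100 µM SAM, both without added vitamin B12. Cells given 2 µM B12 are used as a reference, and 2 more libraries, with 2 µM B12 and 2 µM of a MAT2A inhibitor (B12 + MAT2Ai), served only to estimate the spread. MEFs 61.3 and 61.5 came from separate embryos, and each treatment was applied to both, giving n = 2 libraries per treatment, paired by MEF line. Doxycycline without a compound was not analysed here, and NSC has 1 inhibitor and 1 dose behind it.

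Histone H3 is trimethylated over transcribed gene bodies by SETD2 (the H3K36me3 mark), with SAM as the methyl donor, and KDM4 demethylases remove this mark as well as H3K9 trimethylation. H3K9 trimethylation is known for silencing repeats and for resisting reprogramming. Both compounds thus act on histone methylation, SAM from the side of supply and NSC from the side of removal, and the comparison asks how far the transcriptomes of the treated cells differ. OSKM cells first lose fibroblast features and gain epithelial ones, and few reach pluripotency.

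The 4 libraries held 34611627 to 38565685 counted reads. Levels are given in CPM, the counts of a gene scaled to a common library size with TMM factors, always for MEF 61.3 and then MEF 61.5. Log2 fold changes with standard errors (SE) and adjusted p-values come from the quasi-likelihood test of edgeR with Benjamini-Hochberg adjustment over all genes tested, and genes with an adjusted p below 0.05 were called. The fibroblast genes of the mesenchymal identity list summed to 33957 and 29919 CPM in NSC cells, against 34704 and 30068 CPM in SAM cells, and 1 of its 34 members was called. Macrophage markers were present in all libraries, at a summed 4701 and 2394 CPM in NSC cells and 2150 and 706 CPM in SAM cells, with no member at 0. Fewer cells of a type and less RNA per cell cannot be told apart in such bulk RNA.

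With NSC, 989 genes (5.10% of those tested) were higher and 858 (4.42%) were lower than with SAM. These shares are the background for the counts of list members given below. The genes that fell were led by interferon-stimulated genes and by epithelial and keratinocyte genes, with Oct4 and Sox2 among them. Those that rose most were led by macrophage genes and by Ahrr, a target of the aryl hydrocarbon receptor, and mRNAs of the mitochondrial genome were among the most abundant genes that rose. A change of at least 1 on the log2 scale was met by 156 higher and 263 lower genes, and the median over all genes was 0.01. All 1847 called genes had the same sign in both MEF lines. The calls were made from these same pairs, so this agreement was favoured by the selection and is no separate support. A test for a different NSC over SAM change between the lines called 0 genes by edgeR, with 497 at an unadjusted p below 0.05. It had 2 residual degrees of freedom, so 0 calls do not show that the lines agree. The number called was 620 without the NSC library of MEF 61.3, 936 without that of MEF 61.5 and 605 without the SAM library of MEF 61.5. Without MEF line as a block a single gene was called.

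**Figure D1:**
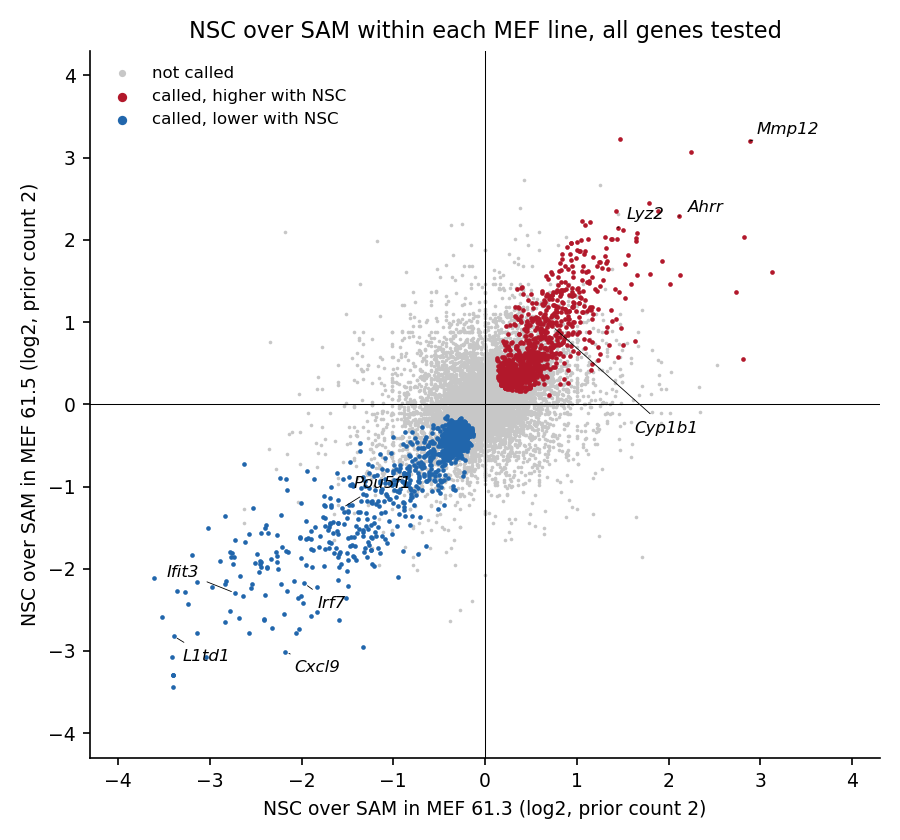
Each point is 1 of the 19392 genes tested, with the log2 difference NSC over SAM in MEF 61.3 on the horizontal axis and in MEF 61.5 on the vertical axis (log2 CPM with a prior count of 2). The 989 genes called higher and the 858 called lower all lie in the quadrants where both MEF lines moved the same way. Calls were made from these same pairs, which favours such agreement. Mmp12 (2.88 and 3.20) and L1td1 (−3.39 and −2.82) lie far from the origin.

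The mRNAs of the demethylases themselves gave no called difference. Kdm4a was at 89.7 and 90.5 CPM in NSC cells and 86.6 and 84.7 CPM in SAM cells (log2 fold change 0.07, SE 0.0597, adjusted p = 0.494). Kdm4b was at 36.5 and 36.2 CPM with NSC and 34.4 and 32.8 CPM with SAM (0.11, SE 0.0658, adjusted p = 0.315). The other members of the family, Kdm4c and Kdm4d, had log2 fold changes of −0.06 (SE 0.0647) and 0.02 (SE 0.517), Kdm4d at under 0.4 CPM. Of 14 H3K36 and H3K9 demethylases, 0 were called by edgeR or by DESeq2, and 2 had an unadjusted p below 0.05. Inhibition of the proteins was not measured in these libraries.

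Among 15 methyltransferases for H3K36 and H3K9 1 was called, Setdb2, an H3K9 methyltransferase that was lower with NSC (7.83 and 7.42 CPM, against 10.9 and 9.74 CPM with SAM, log2 fold change −0.43, SE 0.100, adjusted p = 0.0215). Setd2 had 132 and 99.6 CPM in NSC cells and 114 and 96.1 CPM in SAM cells, and the groups overlapped. Of 20 readers of these marks only Uhrf1, which couples methylated H3K9 to maintenance of DNA methylation, was called (−0.48, SE 0.0884, adjusted p = 0.00665). Uhrf1 also belongs to the S-phase genes. With 4.42% of all genes tested called lower, 1 of 15 and 1 of 20 are near the share over all genes. The Setdb2 call was lost without any single NSC or SAM library, and that of Uhrf1 without the NSC or the SAM library of MEF 61.5.

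Over all genes tested 5.10% were called higher and 4.42% lower. In the methionine cycle, which makes SAM and clears its product S-adenosylhomocysteine, 1 of 21 genes was called higher and 3 were called lower. The higher one, Ahcyl2 (0.31), was not called by DESeq2, nor without any single NSC, SAM or B12 + MAT2Ai library. Ahcy, the hydrolase of S-adenosylhomocysteine, was at 61.3 and 79.8 CPM with NSC and 77.2 and 105 CPM with SAM (log2 fold change −0.36, SE 0.0621, adjusted p = 0.00418). It was lower in NSC in each MEF line, although the groups overlapped between lines. Cth, which makes cysteine by transsulfuration, was lower by a similar size (−0.43, SE 0.103, adjusted p = 0.0239). Mat2a, the SAM synthetase, was at 174 and 184 CPM in NSC cells and 172 and 179 CPM in SAM cells, and Mtr, the B12-dependent methionine synthase, at 48.3 and 36.5 CPM in NSC cells and 44.9 and 39.6 CPM in SAM cells, neither called. In the folate cycle and serine synthesis 4 of 24 genes were called, all lower with NSC: Shmt1 (−0.55), Mthfd1l (−0.45), Phgdh (−0.30) and Mthfd1 (−0.26). Of the folate and the lower methionine-cycle genes 0 were called by edgeR without the NSC library of MEF 61.3 or the SAM library of MEF 61.5, and 1 of each list without the NSC library of MEF 61.5. Without either B12 + MAT2Ai library 2 folate genes were called.

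Type I interferon induces a large set of antiviral genes through a transcription factor complex that contains IRF9 and binds the interferon-stimulated response element (ISRE) in their promoters. Of 39 interferon-stimulated genes tested, 38 were lower with NSC than with SAM and 0 were higher, with a median log2 fold change of −1.56. The sum of their levels was 1083 and 1019 CPM in NSC cells, against 2494 and 2739.6 CPM in SAM cells. The median within each MEF line was −1.49 and −1.69.

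Ifit3, which curbs viral replication, was at 15.7 and 21.1 CPM with NSC, against 104 CPM in both SAM libraries (log2 fold change −2.48, SE 0.258, adjusted p = 0.000212). Isg15, a ubiquitin-like modifier of antiviral proteins, was at 16.1 and 16.7 CPM in NSC cells, against 64.1 and 89.6 CPM in SAM cells (−2.23, SE 0.236, adjusted p = 0.000235). Oasl1, which limits translation of Irf7 in mouse, was at 0.824 and 0.686 CPM with NSC and 4.34 and 4.84 CPM with SAM (−2.61, SE 0.309, adjusted p = 0.000457). For each of these 3 genes both NSC libraries were below both SAM libraries. The same held for 766 of the 858 genes called lower, and 7788 of all 19392 genes tested had no overlap in either direction. Ifit1 fell by 1.96, Mx1, a GTPase against RNA viruses, by 2.34, Rsad2, which makes a chain-terminating nucleotide, by 2.26, and Usp18, which removes ISG15 from proteins, by 1.96 on the log2 scale. The smallest called change was that of Eif2ak2, a kinase that senses double-stranded RNA (−0.55, SE 0.103, adjusted p = 0.00671). Oas3, the member not called, was at 0.501 and 0.432 CPM in NSC cells and 1.68 and 1.47 CPM in SAM cells (adjusted p = 0.0577). Ifit3 and Ifit3b, and the Oas1 genes among themselves, are near-identical copies. Their shared reads could be split between copies or counted at each, so values of single copies are uncertain and may not be separate.

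**Figure D2:**
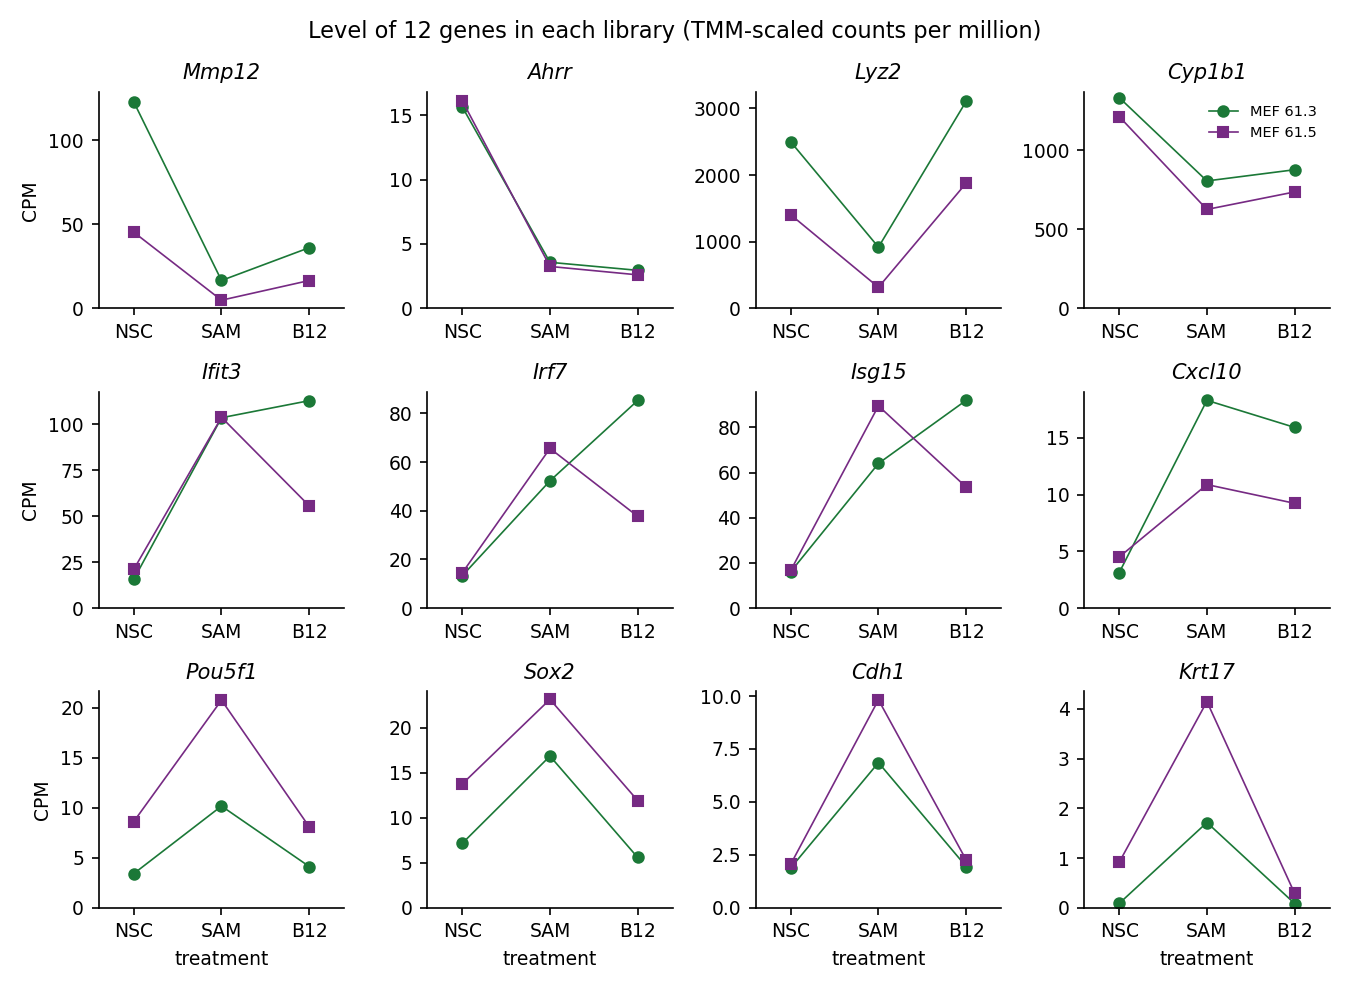
Levels of 12 genes in NSC, SAM and B12 libraries, with CPM on a linear axis from 0 and lines joining libraries of the same MEF line (circles 61.3, squares 61.5). Ifit3, Irf7, Isg15 and Cxcl10 were lowest in both NSC libraries, Ahrr and Cyp1b1 highest in them, whereas Pou5f1, Sox2, Cdh1 and Krt17 were highest in the SAM library of each line.

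Some regulators of the pathway were lower with NSC. Irf7, the interferon regulatory factor that is itself induced by interferon, was at 13.3 and 14.5 CPM in NSC cells, against 52.3 and 65.6 CPM in SAM cells (log2 fold change −2.09, SE 0.280, adjusted p = 0.000905). Stat2 (−0.76) and Irf9 (−0.63) were lower by smaller amounts, and so was Tlr3 (−0.47), a receptor for double-stranded RNA. Stat2 was at 123 and 109.5 CPM with NSC and 208 and 185 CPM with SAM. Upstream of them Ifnar1, a chain of the type I interferon receptor, was slightly higher with NSC (141 and 115 CPM, against 114 and 97.6 CPM with SAM, 0.27, SE 0.0603, adjusted p = 0.0173), as was Irf8 (0.74), which macrophages express. Jak1, Tyk2, Irf3 and Ifnar2 were not called. In all, 5 of 23 of these genes were called lower and 2 higher, and without the NSC library of MEF 61.3 or the SAM library of MEF 61.5 the lower count was 1 and the higher count 0. Ifnar1 was also lost without the SAM library of MEF 61.3. With robust shrinkage 3 of the lower genes were called, and the calls of Irf7 and Stat2 were lost.

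The interferon-induced chemokines Cxcl9 and Cxcl10 were lower with NSC. Cxcl9, a ligand of CXCR3, was at 0.589 and 0.407 CPM in NSC cells, against 2.87 and 3.67 CPM in SAM cells (log2 fold change −2.73, SE 0.235, adjusted p = 6.07e-05). Cxcl10, another ligand of that receptor, was at 3.12 and 4.50 CPM in NSC cells, against 18.3 and 10.9 CPM in SAM cells (−1.87, SE 0.228, adjusted p = 0.000541). In MHC class I presentation, 7 of 21 genes were called, all lower: H2-Q4, Psmb8, H2-T23, Nlrc5, Tap1, B2m and H2-T22, by 0.84 to 0.42 on the log2 scale. B2m, the light chain of class I molecules, was at 530.2 and 408 CPM with NSC and 659 and 649 CPM with SAM (−0.50, SE 0.120, adjusted p = 0.0250). The number of class I genes called was 0 without the NSC library of MEF 61.3 or the SAM library of MEF 61.5, 2 without the NSC library of MEF 61.5, 4 without B12 + MAT2Ai of MEF 61.3 and 11 or 12 without the SAM library of MEF 61.3 or either B12 library. With robust shrinkage 0 of 21 were called by edgeR, and with DESeq2 3 were. H2 genes are near-identical in parts, and their counts may share reads.

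Relative to the B12 libraries the interferon genes were low in NSC cells. In the same model 55 genes (0.284%) were higher and 315 (1.62%) lower in NSC than in B12, and 539 (2.78%) higher and 956 (4.93%) lower in SAM than in B12; these comparisons share the B12 libraries. All 39 interferon-stimulated genes were called lower in NSC than in B12, with a median of −1.55, and 1 of 39 was called lower in SAM than in B12, with a median of −0.04. The B12 libraries themselves differed, with summed levels of 3434 and 1984 CPM. Ifit3 had 113 and 55.7 CPM and Irf7 85.3 and 37.7 CPM in B12 cells, with log2 fold changes of −2.16 and −2.10 for NSC over B12, and of 0.32 and −0.01 for SAM over B12. The interferon calls also depended on the estimate of the spread: with robust empirical Bayes shrinkage 12 of 39 were called, with DESeq2 38 were, and leaving out any library gave 33 to 39.

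Promoters of called interferon-stimulated genes often held the ISRE letters, GAAA followed after any 2 bases by GAAA, searched on both strands from 250 bases before to 50 bases after the RefSeq start site (GRCm38.p6). Of the 38 called genes 27 had a promoter in that table, and 18 of them (66.7%) held a match, against 1131 of 32851 promoters in all (3.44%) and 475 of 12008 tested genes with a promoter (3.96%). Among the 6 called class I genes with a promoter 3 held one, and among the 4 called lower regulators with a promoter 1 did. Promoters of gene copies, such as Ifit3 and Ifit3b or Oas1a and Oas1g, are near-identical, so these counts are not all separate. With 38 of 39 list members called, the share describes the list and not a response to NSC. A match is a description of the letters and not evidence of binding. The 200 bases before the start site of 4 of these genes are shown 5′ to 3′ on the strand of the gene, chosen to show matches near to and far from the start, with matches in capitals; overlapping matches run together.
Isg15: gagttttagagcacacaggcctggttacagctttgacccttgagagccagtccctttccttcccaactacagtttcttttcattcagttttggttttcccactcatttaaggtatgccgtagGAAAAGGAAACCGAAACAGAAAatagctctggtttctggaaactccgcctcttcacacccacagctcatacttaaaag
Ifit3: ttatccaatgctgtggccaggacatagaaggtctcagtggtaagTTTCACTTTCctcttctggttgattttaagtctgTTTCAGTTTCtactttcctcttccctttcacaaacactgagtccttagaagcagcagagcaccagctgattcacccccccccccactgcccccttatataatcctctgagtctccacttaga
Ifit1: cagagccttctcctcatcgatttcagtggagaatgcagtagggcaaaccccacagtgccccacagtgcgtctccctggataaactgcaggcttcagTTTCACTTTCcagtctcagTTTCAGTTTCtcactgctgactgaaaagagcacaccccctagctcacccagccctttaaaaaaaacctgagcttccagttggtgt
Irgm1: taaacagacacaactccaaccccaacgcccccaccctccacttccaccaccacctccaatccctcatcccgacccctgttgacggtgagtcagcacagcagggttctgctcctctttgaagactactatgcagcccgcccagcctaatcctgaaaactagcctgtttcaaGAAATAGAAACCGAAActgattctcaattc
The stretch of Isg15 is chr4:156200819-156201018 on the minus strand, and its 3 matches overlap and begin 78 to 66 bases before the start site. That of Ifit3 is chr19:34583329-34583528 on the plus strand, with 2 separate matches that begin 156 and 122 bases before it. Ifit1 (chr19:34640689-34640888, plus strand) has 2 matches that begin 104 and 85 bases before the start. Irgm1, a GTPase of autophagy that fell by 1.17 on the log2 scale, has 2 overlapping matches 30 and 24 bases before it (chr11:48871421-48871620, minus strand). Oasl1 and Ifi44, with changes of −2.61 and −2.40, had no match in their windows.

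Macrophage genes were higher in NSC than in SAM cells. Of 26 markers 22 were called higher and 0 lower, with a median log2 fold change of 0.92 (0.73 in MEF 61.3 and 1.18 in MEF 61.5). Lyz2, the macrophage lysozyme, was at 2498 and 1404 CPM with NSC, against 919 and 316 CPM with SAM (1.77, SE 0.152, adjusted p = 5.82e-05). Its copy Lyz1 gave 1.70, and reads shared by the pair are uncertain. Mrc1, the mannose receptor, was at 505 and 167 CPM in NSC cells and 195 and 41.4 CPM in SAM cells (1.65, SE 0.167, adjusted p = 0.000173). The lower NSC library of Mrc1 was below the higher SAM library, and MEF 61.3 had more Mrc1 than MEF 61.5 under each treatment. Spi1, the transcription factor that specifies macrophages, rose by 1.22 and Csf1r, the receptor for their survival factor, by 0.89. Cx3cr1, Aif1, Siglec1 and Cd163 were not called, Cx3cr1 with a log2 fold change of −0.58. Cd163, the lowest of them, had at least 5 reads in each NSC library and 3 in each SAM library. Leaving out any library left 19 to 23 markers called.

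Against B12 the macrophage genes were low in SAM cells. Of the 26 markers 24 were called lower in SAM than in B12 (median −1.44), and 8 were called lower in NSC than in B12 (median −0.47), at summed levels of 4701 and 2394 CPM with NSC, 2150 and 706 CPM with SAM and 5988 and 3310 CPM with B12. Lyz2 was at 3106 and 1879 CPM in B12 cells.

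Most of the genes that rose most are also known from macrophages, and whether their rise came from these cells was not tested. Mmp12, the macrophage elastase (chr9:7344381-7369499), was at 123 and 45.3 CPM in NSC cells, against 16.6 and 4.87 CPM in SAM cells (log2 fold change 3.01, SE 0.118, adjusted p = 8.49e-07). At 36.1 and 16.6 CPM in B12 cells, Mmp12 was higher in NSC (1.62) and lower in SAM (−1.39) than in B12, and both differences were called. Csf2rb, the shared chain of the GM-CSF, IL-3 and IL-5 receptors, was at 29.4 and 11.3 CPM with NSC and 7.92 and 2.17 CPM with SAM (2.05, SE 0.138, adjusted p = 1.55e-05), and its near-identical paralogue Csf2rb2 rose by 1.78. Gpnmb, a glycoprotein of lipid-laden macrophages and osteoclasts, was at 325 and 152 CPM with NSC and 103 and 35.99 CPM with SAM (1.85, SE 0.111, adjusted p = 8.41e-06). Abcg1, a cholesterol exporter and target of liver X receptors, rose by 1.91 and was the only one called of 16 liver X receptor genes. Stab1 (1.803), Clec4n (1.65), Fcgr2b (1.64) and Ccl6 (1.64), all macrophage receptors or chemokines, and Nxpe5 (1.70) and Col20a1 (1.77) complete the 15 largest, with Ahrr, Lyz2, Lyz1 and Mrc1. This ranking covers genes that averaged at least 1 CPM and leaves out Gm, Rik and clone names. Clec4n and Fcgr2b belong to families with close copies.

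Some genes of inflammation, iron handling and fat cells, several of which macrophages also express, were called higher, beside macrophage sums of 4701 and 2394 CPM with NSC and 2150 and 706 CPM with SAM; the part of these cells was not tested. Of 39 chemokine and inflammatory genes 11 were called higher and 4 lower, the higher ones including Ccl6, Ccl9, Ccl3, Ccl4, Ccl12 and Tnf. Tnf, the inflammatory cytokine, was at 4.77 and 2.72 CPM in NSC cells and 2.69 and 1.06 CPM in SAM cells (log2 fold change 1.02, SE 0.197, adjusted p = 0.00854). The higher count was 6, 5 and 4 without NSC of MEF 61.3, NSC of MEF 61.5 and SAM of MEF 61.5, and Tnf was lost without NSC of MEF 61.3 or SAM of MEF 61.5. In the list of NRF2 targets, glutathione and iron storage, 7 of 40 were called higher and 1 lower. Fth1, the ferritin heavy chain, was at 1643 and 1209 CPM with NSC and 1149 and 778 CPM with SAM (0.58, SE 0.0642, adjusted p = 0.000315), and Slc40a1, the iron exporter ferroportin, rose by 0.72. Hmox1, which degrades haem, rose by 0.60, with 174 and 124 CPM in NSC cells and 144 and 63.8 CPM in SAM cells. The classical NRF2 target Nqo1 was at 8.72 and 12.8 CPM in NSC cells and 9.07 and 11.6 CPM in SAM cells. Of the 7 genes called higher 2 or 3 stayed called without any single NSC or SAM library. Of 10 adipocyte genes 5 were called higher, among them Fabp4 (0.80), Lpl (0.55) and Pparg (0.55), the master regulator of fat cells. Lpl and Fabp4 are also made by macrophages, and the adipocyte count fell to 1 without the SAM library of MEF 61.5 and to 2 without either NSC library.

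**Figure D3:**
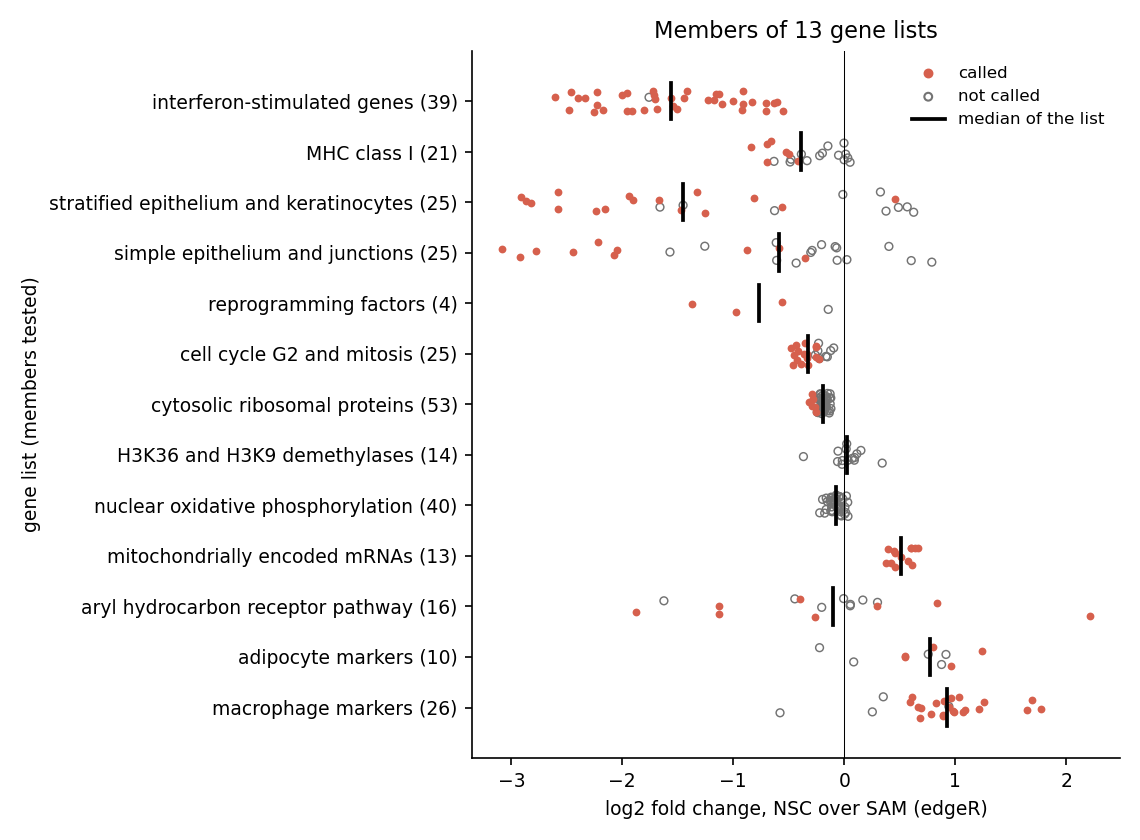
Log2 fold changes NSC over SAM of the members of 13 gene lists, with called members filled, others open and the list median as a bar. Interferon-stimulated genes (median −1.56) and stratified epithelial genes (−1.45) lie to the left, macrophage markers (0.92) to the right, and H3K36 and H3K9 demethylases (0.03) around 0.

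Epithelial genes were lower with NSC than with SAM. Of 25 genes of simple epithelium and junctions, 10 were called lower and 0 higher (median −0.58). Cdh1, the E-cadherin of adherens junctions, was at 1.88 and 2.06 CPM in NSC cells, against 6.86 and 9.82 CPM in SAM cells (log2 fold change −2.08, SE 0.149, adjusted p = 2.25e-05). Krt8, the keratin of simple epithelia, was at 2.74 and 8.51 CPM with NSC and 13.4 and 32.3 CPM with SAM (−2.05, SE 0.121, adjusted p = 7.66e-06). Both genes had their NSC libraries below both SAM libraries, as did 766 of the 858 genes called lower. Ehf, an epithelial ETS factor, fell by 2.78, and the desmosomal genes Pkp1 and Dsp by 2.44 and 2.21 on the log2 scale.

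In the list of stratified epithelium and keratinocytes, 15 of 25 were called lower and 1 higher, Fabp5 (0.46), which macrophages also make. The median was −1.45. Krt14 is a keratin of basal keratinocytes and a marker of intermediate reprogramming in mouse tissues. It was at 12.2 and 39.1 CPM in NSC cells, against 41.4 and 91.5 CPM in SAM cells (log2 fold change −1.47, SE 0.114, adjusted p = 3.41e-05). MEF 61.5 had about as much Krt14 under NSC as MEF 61.3 had under SAM, and the order of the treatments was the same in both. Nccrp1, a protein of squamous epithelium, was at 0.236 and 1.25 CPM with NSC and 3.31 and 7.76 CPM with SAM (−2.91, SE 0.252, adjusted p = 6.25e-05). Krt6a (−2.86), Krt13 (−2.58), Krt17 (−2.58) and Krt16 (−2.16), keratins of activated or mucosal epithelium, were low in all 4 libraries, at under 13 CPM. Perp, a desmosomal protein and p53 target, was at 5.51 and 10.7 CPM in NSC cells and 15.1 and 25.01 CPM in SAM cells (−1.33, SE 0.0900, adjusted p = 1.62e-05). Ly6a encodes SCA1, a marker of an early intermediate of reprogramming in mouse tissues. It was at 321 and 312 CPM with NSC and 457 and 474 CPM with SAM (−0.56, SE 0.104, adjusted p = 0.00664). Whether these 2 genes mark intermediates in MEF cultures was not tested. Ly6a is also induced by interferon, and its call was lost without NSC of MEF 61.3 or SAM of MEF 61.5. Trp63, the regulator of stratified epithelium, had a log2 fold change of −0.01. Keratin genes have close relatives, and how reads that fit several were counted is not given in the sources used here.

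**Figure D4:**
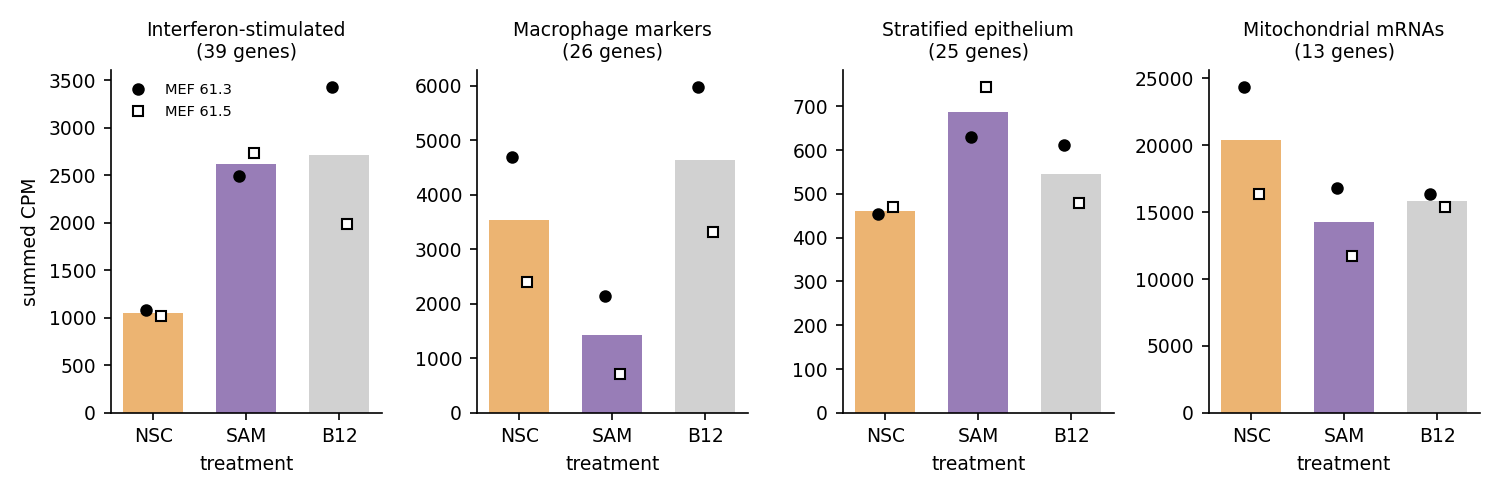
Summed CPM of 4 gene lists in NSC, SAM and B12 libraries, with bars at the mean of 2 libraries, filled circles for MEF 61.3 and open squares for MEF 61.5. NSC libraries were the lowest for interferon-stimulated genes (1083 and 1019), SAM libraries the lowest for macrophage markers (2150 and 706) and the highest for stratified epithelium (630 and 745). For stratified epithelium the B12 libraries had 611 and 480, that of MEF 61.3 near SAM, and the NSC libraries 454 and 470.

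Of the reprogramming factors, Oct4, Sox2 and Myc were lower with NSC. Pou5f1, which encodes Oct4, was at 3.42 and 8.62 CPM in NSC cells, against 10.2 and 20.8 CPM in SAM cells (log2 fold change −1.38, SE 0.123, adjusted p = 7.64e-05). Sox2 was at 7.16 and 13.7 CPM with NSC, against 16.8 and 23.1 CPM with SAM (−0.97, SE 0.128, adjusted p = 0.000804). For both factors MEF 61.5 was the higher line under either treatment. Myc was at 30.1 and 49.5 CPM in NSC cells, against 46.4 and 70.6 CPM in SAM cells (−0.56, SE 0.0786, adjusted p = 0.00120), and Klf4 at 104 and 98.5 CPM in NSC cells, against 116 and 109 CPM in SAM cells (−0.14, SE 0.0565, adjusted p = 0.141). Counts per gene do not separate transcripts of the cassette from those of the endogenous genes. All 3 calls held without any single library.

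Few genes of established pluripotency were detected at this time. Of 28 listed 14 passed the filter, with 2 called lower and 2 higher. L1td1 encodes an RNA-binding protein of pluripotent cells (chr4:98726734-98738480). It had the largest fall among called genes that averaged at least 1 CPM over the 4 libraries, Gm, Rik and clone names aside. Its level was 0.530 and 2.08 CPM in NSC cells, against 6.12 and 15.05 CPM in SAM cells (log2 fold change −3.04, SE 0.173, adjusted p = 6.25e-06). Nanog was at 0.353 and 0.610 CPM with NSC and 0.561 and 0.890 CPM with SAM and was not called. Klf2, a naive pluripotency factor that macrophages and endothelium also express, was higher with NSC, at 39.3 and 37.6 CPM, against 24.8 and 21.6 CPM with SAM (0.73, SE 0.116, adjusted p = 0.00282). This call was lost without the SAM library of MEF 61.5.

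With B12 as the reference, these genes were high in SAM cells, and NSC cells were near B12. SAM over B12 gave log2 fold changes of 1.33 for Pou5f1, 1.24 for Sox2, 3.31 for L1td1, 1.98 for Cdh1 and 1.56 for Krt14, all called. NSC over B12 gave −0.04, 0.26, 0.27, −0.10 and 0.09 for the same genes, none called. Of the stratified epithelial genes 16 were called higher in SAM than in B12 and 0 in NSC. Among genes that averaged at least 1 CPM, Gm, Rik and clone names aside, the 15 largest called changes NSC over SAM in each direction were compared with B12. Of the 15 that fell most, 10 were called in SAM over B12 and the other 5 in NSC over B12. Of the 15 that rose most, 14 were called in SAM over B12 and 5 in NSC over B12. These genes were picked by their NSC over SAM change, which favours a difference from B12 on either side.

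**Figure D5:**
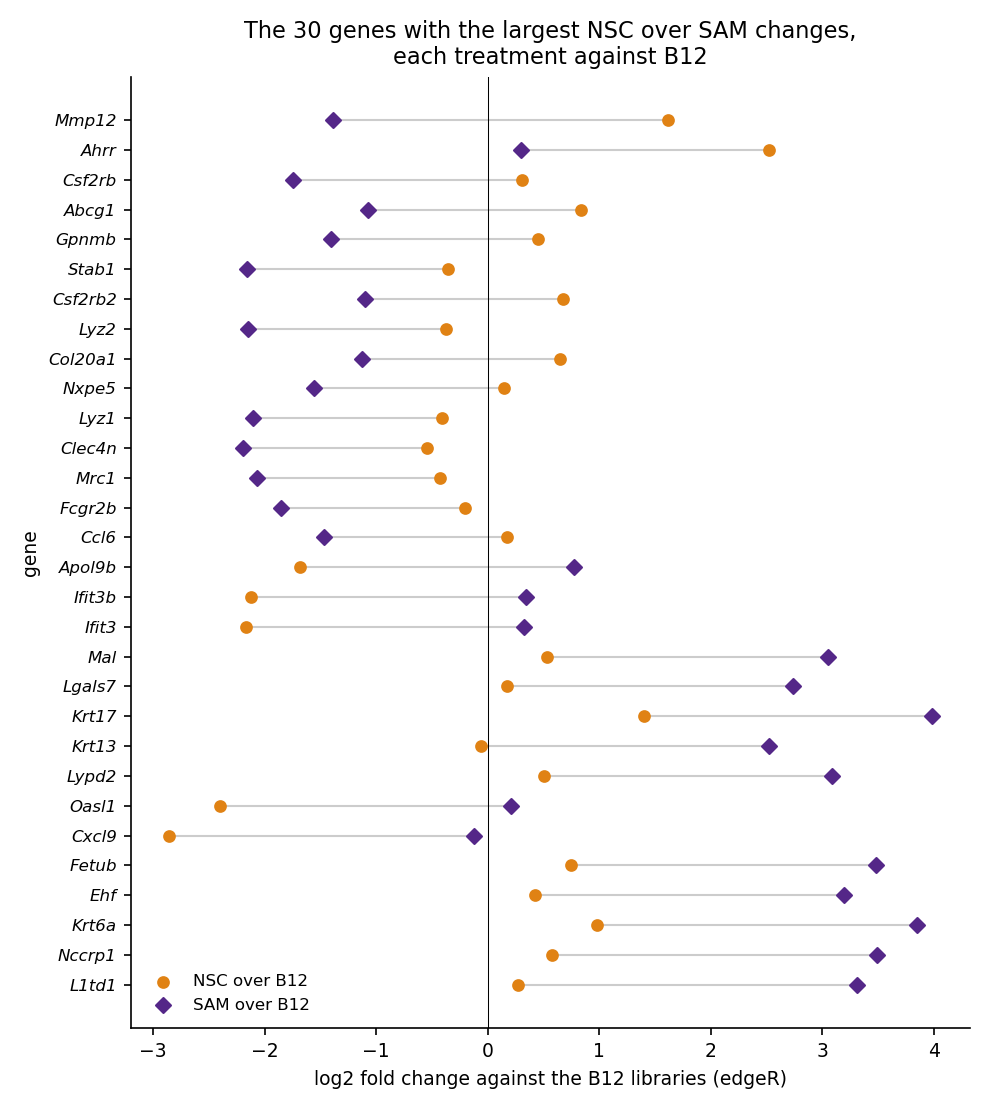
The 30 genes with the largest called changes NSC over SAM, ordered by that change, with the log2 fold change of NSC over B12 (circles) and SAM over B12 (diamonds) on the horizontal axis; both share the B12 libraries. Ifit3, Ifit3b, Oasl1, Cxcl9 and Apol9b were low in NSC, the keratin Krt17 (3.98) and the pluripotency gene L1td1 (3.31) were high in SAM, and most macrophage genes were low in SAM.

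Targets of the aryl hydrocarbon receptor (AhR), a ligand-activated transcription factor that senses xenobiotics, split in direction between NSC and SAM cells, but not against B12. Ahrr, the repressor that AhR induces against itself (chr13:74211118-74292331, minus strand), was at 15.6 and 16.1 CPM in NSC cells, against 3.58 and 3.25 CPM in SAM cells (log2 fold change 2.22, SE 0.108, adjusted p = 2.54e-06). The B12 cells had 2.95 and 2.60 CPM, so that both NSC libraries were above all SAM and B12 libraries. Of the 989 genes called higher, 608 had both NSC libraries above both SAM libraries. Cyp1b1, a cytochrome P450 that AhR induces, was at 1332 and 1212 CPM with NSC, against 805 and 625 CPM with SAM (0.84, SE 0.0681, adjusted p = 4.05e-05), and at 876 and 736 CPM with B12. Ahrr and Cyp1b1 had NSC over B12 changes of 2.52 and 0.66, both called, and SAM over B12 changes of 0.30 and −0.18, neither called. They were the only 2 of 16 pathway genes called higher in NSC than in B12, and 0 were called lower. In SAM over B12, 5 of the 16 were called higher and 0 lower. Over all genes tested 0.284% were called higher in NSC than in B12 and 2.78% in SAM than in B12. Ahrr was the gene that stayed called without the MEF block.

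Other genes of that pathway varied. Cyp1a1, its best known target, did not pass the filter, with 4 and 3 reads in NSC cells, 0 and 0 in SAM cells and 0 and 1 in B12 cells. Tiparp, another direct target, was at 33.5 and 36.8 CPM in NSC cells and 32.7 and 37.9 CPM in SAM cells. Aldh3a1, an aldehyde dehydrogenase induced through AhR and abundant in squamous epithelium, was lower with NSC, at 7.80 and 22.7 CPM, against 37.9 and 68.5 CPM with SAM (−1.88, SE 0.130, adjusted p = 1.75e-05). In all, 3 of 16 genes were called higher, with Ugt1a7c (0.30) beside Ahrr and Cyp1b1, and 5 lower, with Cyp2s1 (−1.13), Aldh1a3 (−1.13), Slc7a5 (−0.40) and Ahr itself (−0.26) beside Aldh3a1. Ugt1a7c was not called by DESeq2, nor without any single NSC, SAM or B12 + MAT2Ai library. The lower count was 3 without the NSC or the SAM library of MEF 61.5. The core letters of the xenobiotic response element, GCGTG, were found in the promoters of 2 of the 3 genes called higher, against 53.03% of tested genes with a promoter and 32.4% of all promoters. The 1 gene called lower that had a promoter in the table held none. The 200 bases before the start of Ahrr (chr13:74292332-74292531, minus strand) are shown for their 3 matches, in capitals, which begin 107 to 27 bases before the start.
Ahrr: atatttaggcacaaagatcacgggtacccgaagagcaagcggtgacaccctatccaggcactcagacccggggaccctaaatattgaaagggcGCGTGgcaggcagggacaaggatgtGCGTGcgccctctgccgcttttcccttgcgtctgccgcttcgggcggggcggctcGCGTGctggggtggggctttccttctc
In the list of NRF2 targets, 4 of the 7 genes called higher had a promoter in the table. The antioxidant response element letters TGANNNNGC were found in 0 of these 4. The share was 47.5% of tested genes with a promoter and 41.3% of all promoters. With 4 promoters, 0 matches do not show a lack of such sites.

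All 13 mRNAs of the mitochondrial genome were called higher with NSC, with a median log2 fold change of 0.52. mt-Cytb, a subunit of complex III, was at 2207 and 1369 CPM in NSC cells and 1466 and 895 CPM in SAM cells (0.60, SE 0.135, adjusted p = 0.0187). The lower NSC library of mt-Cytb was below the higher SAM library, and MEF 61.3 had the higher level under both treatments. mt-Nd3, a subunit of complex I, was at 412 and 366 CPM in NSC cells, against 304 and 295 CPM in SAM cells (0.38, SE 0.0712, adjusted p = 0.00725). Mitochondrial genes held 2.33% and 1.69% of reads in NSC libraries, against 1.66% and 1.23% in SAM libraries. Of 40 nuclear genes of oxidative phosphorylation 0 were called by edgeR or DESeq2 and 5 had an unadjusted p below 0.05, at a median of −0.07. The NSC library of MEF 61.3 and the SAM library of MEF 61.5 were needed for these calls: 0 of 13 were called by edgeR without the NSC library and 1 of 13 without the SAM library. With robust shrinkage 5 were called, and with DESeq2 7. Against B12, 0 of 13 were called in NSC and 1 in SAM. Pseudogenes on chromosome 1 had nearly the counts of the mitochondrial genes they resemble: Gm28661 and Gm28437 were at 100.1% and 100.2% to 100.3% of mt-Co2 and mt-Co3, and Gm10925 at 119.7% to 120.9% of mt-Atp6. The reads of these genes and copies cannot be told apart.

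Most genes of G2 and mitosis, and a minority of S-phase and ribosomal protein genes, were called lower with NSC, by small amounts. Of 25 genes of G2 and mitosis 17 were called lower and 0 higher (median −0.32), and of 24 S-phase genes 5 were called lower. Ccna2, a cyclin of S phase and G2, was at 53.9 and 59.9 CPM in NSC cells, against 66.8 and 91.0 CPM in SAM cells (log2 fold change −0.46, SE 0.0758, adjusted p = 0.00329). Hmgb2, a chromatin protein of dividing cells, fell by 0.46, Plk1, the mitotic kinase, by 0.43, and Cdk1, the kinase that drives mitosis, by 0.34 on the log2 scale. Cdkn1a, the inhibitor p21, was also lower (−0.28, SE 0.0650, adjusted p = 0.0228), a call lost without NSC or SAM of MEF 61.3, SAM of MEF 61.5 or either B12 + MAT2Ai library. That of Ccna2 was lost without SAM of MEF 61.5. The count of mitotic genes was 1 without the SAM library of MEF 61.5, 3 and 5 without the NSC libraries of MEF 61.3 and 61.5, and 9 when B12 + MAT2Ai of MEF 61.3 was left out. The count of S-phase genes was 0 without the NSC or SAM library of MEF 61.5, 1 without NSC of MEF 61.3 and 12 without SAM of MEF 61.3. Across 19340 genes the log2 fold change rose weakly with exonic length (Spearman correlation 0.192). Whether length bears on the small shift of ribosomal protein genes was not tested. Of 53 ribosomal protein genes 6 were called lower, with a median of −0.19, and every one of the 53 had a negative log2 fold change. The count was 0 without NSC of MEF 61.3 or SAM of MEF 61.5, 1 without NSC of MEF 61.5, 2 without either B12 + MAT2Ai library and 18 without either B12 library. Eef1a1, the elongation factor and the most abundant gene called lower, was at 3795 and 4335 CPM in NSC cells and 4657 and 5229 CPM in SAM cells (−0.28, SE 0.0671, adjusted p = 0.0236), and pseudogenes with its sequence could share its reads. Its call was lost without either NSC library, SAM of MEF 61.5 or either B12 + MAT2Ai library.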

How the data were processed

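Poly(A)-selected, stranded mRNA libraries were sequenced from MEFs of 2 embryos. The authors aligned reads to mm10 (GRCm38) with STAR 2.5.2b, counted them per gene with featureCounts in reverse-stranded mode and summed technical replicates; the deposited values are raw counts. Of 55487 gene IDs, 55141 matched GENCODE annotation of GRCm38 and 346 did not. Genes with low counts were removed (filterByExpr of edgeR, minimum count 10), leaving 19392. Counts of all 8 libraries were TMM-scaled and fitted with treatment and MEF line as terms (edgeR 4.0.16 quasi-likelihood, limma 3.58.1, R 4.3.3; 3 residual degrees of freedom, prior 7.92, biological coefficient of variation 0.059). Same-numbered libraries come from the same embryo, and their deviations correlated at 0.424 to 0.559. P-values rest on n = 2. CPM levels were given without a prior count, and log2 CPM values, as for the differences within MEF lines, used a prior count of 2. Tables and motif counts used Python 3.11.15, pandas 2.3.3 and numpy 2.4.6. The procedure was tested on simulated data.

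The genes compared and the 44 gene lists were chosen with earlier results of these data known. Genes named were the 15 largest called changes in each direction (at least 1 CPM, without Gm, Rik or clone names), the 10 most abundant called in each direction, 17 fixed genes and up to 8 called per list. Some others were named after their values were seen. Of listed symbols 102 were under the filter and 1 was not in the annotation. Alternatives were DESeq2 1.42.0 and its size factors, other filters, no MEF block, 4 libraries only, robust shrinkage, prior counts of 0.5 and 5, leaving out each library and, chosen after seeing the data, a MEF by treatment term.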

Additional observations from a re-analysis of the deposited data

How the results depend on the processing

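DESeq2 called 1172 genes (613 higher and 559 lower with NSC), no low-count filter 2895 (1564 and 1331), the 4 NSC and SAM libraries alone 3340 (1651 and 1689) and an absolute log2 fold change of at least 1 419 (156 and 263). Without the replicate block, edgeR called 1 gene (1 higher, Ahrr, and 0 lower), with 2004 at an unadjusted p below 0.05. Leaving out 1 library at a time gave 605 to 2717 called genes, 316 to 1410 higher and 289 to 1307 lower. The causes were not tested. DESeq2 size factors, a 1 CPM filter and robust shrinkage gave within 1.5 times the main counts over all genes, although robust shrinkage lost 26 calls among 205 named genes, interferon and MHC class I genes among them. Of 1847 called genes, DESeq2 shared 1160, all in the same direction, and no call among 205 named genes turned its direction under any alternative run. The design has 2 embryos, 1 library per embryo and treatment, and counting error is small beside the spread between embryos. Genes with few reads, such as Krt17 and Cd163, have imprecise changes. Bulk counts do not separate cell types, nor the OSKM cassette from endogenous genes.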

Other observations

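Of 29 imprinted genes 5 were called higher with NSC and 0 lower, at a median log2 fold change of 0.21. They were Peg10 (0.60), Meg3 (0.47), Cdkn1c (0.36), Rtl1 (0.36) and Gab1 (0.26). Meg3, a long noncoding RNA, and Rtl1 belong to the Dlk1-Dio3 domain, and Cdkn1c is a cell cycle inhibitor. The count was 0 without SAM of MEF 61.5, 2 without NSC of MEF 61.3, 3 without NSC of MEF 61.5 or SAM of MEF 61.3, and 9 or 10 without a B12 library.

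Of 30 contractile genes and YAP targets 6 were called lower and 1 higher, Ccn2 (0.30). The lower ones included Ankrd1 (−1.22), Actg2 (−1.20), Cnn1 (−0.87) and Acta2 (−0.40), the smooth muscle actin. Ankrd1 had few reads, 10 and 13 in NSC cells and 20 and 31 in SAM cells. It was not called by DESeq2, nor without any single NSC or SAM library. The lower count was 3 without NSC of MEF 61.3 and 10 without either B12 library, and Ccn2 was not called without any single NSC or SAM library. Among 13 neural and neural crest genes Stmn2 (−1.70), Nes (−0.67) and Tubb3 (−0.41) were lower and Sox10 (0.80) was higher, and 1 was called lower without NSC or SAM of MEF 61.5. Sox10 was not called by DESeq2, nor without any single NSC or SAM library.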
